A study of Sus scrofa with 57 samples.

Results

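The genes described here are the immediate early and stress response genes of pig adipocytes, a set of 38 listed symbols that was looked up by name in the expression tables. Of these, 30 were found by their symbol, with EGR1 written as EGR-1 and ZFP36 as TTP, among 25285 gene identifiers in all. EGR3 (written EGR-3), NR4A3 (written NOR-1) and IER5 (without a name) were matched only by their identifier and are given apart. No entry was found under the names FOSB, FOSL2, JUND, KLF2 and GADD45A. RNAseq was made from mature adipocytes, isolated with collagenase from the retroperitoneal fat of 5 lean and 5 obese male pigs of a cross between Duroc pigs and Göttingen minipigs, a breed prone to obesity, chosen at both ends of fatness. Lean and obese are phenotypes of untreated pigs, and no transgene or drug was involved. The ages of single pigs were not used here. Methylation of the adipocyte DNA was measured by capture of methylated DNA (mDNAcap) and by bisulfite sequencing of a reduced part of the genome (RRBS) in pigs of both sexes, and those files list the regions that the authors' search for differences returned.

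Immediate early genes are transcribed within minutes of a signal, without the need for new protein, because the factors that switch them on are already in the cell. Growth factors, cytokines, mechanical strain, heat and the enzymatic dissociation of tissue are all known to induce them through the MAP kinases, SRF, CREB and NF-kB. Their products fall into transcription factors that start a second wave of genes (FOS, JUN, EGR1), inhibitors that end the signal (dual-specificity phosphatases, the NF-kB inhibitor NFKBIA, the cytokine inhibitor SOCS3, the mRNA-degrading proteins of the ZFP36 family) and regulators of arrest, survival and stress (BTG2, MCL1, PPP1R15A). In adipose tissue, FOS, KLF4, CEBPB and CEBPD are also known as early factors of adipocyte differentiation.

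The 10 pigs gave 11 RNAseq libraries, since obese pig-572 has a second one, titled pig-572(B), whose description carries another animal number. The deposited unit is FPKM, a fragment count scaled to transcript length and to the mapped fragments of the library, so that levels of different genes are per length. The read depth is not given by these values, and 8950 to 10291 genes had an FPKM of at least 1 in a library. Each library was divided by its size factor (0.693 to 1.23), pig-572 was given the mean of its pair of libraries, and the result is called scaled FPKM. Genes with a mean scaled FPKM of at least 1 were tested, 10190 in all, and 26 of the 30 members were among them. The pigs are the replicates. In RNA from a mass of cells, fewer cells of a type and less RNA per cell cannot be told apart.

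The immediate early genes were mostly lower on average in the obese pigs, they varied widely from pig to pig, and none of the 26 passed the test. On the log2 scale 23 of 26 had a lower mean in obese pigs, where 50.3% of all genes tested did. The median difference of the members (obese minus lean, log2 of scaled FPKM plus 1) was −0.86, and that of all genes was −0.00. With limma and Benjamini-Hochberg adjustment over all genes tested, 0 members passed an adjusted p under 0.05, as against 0.00981% of all genes (1 gene), and adjusted p ranged from 0.165 to 0.987 over the members. At an unadjusted limma p under 0.05, 11 of 26 members (42.3%) were lower in obese pigs, beside 10.3% of all genes tested, and 0 were higher, beside 10.5%. Lean and obese pigs overlapped in all 26 members (0 without overlap, beside 1.82% of all genes for lower and 2.35% for higher values in obese pigs). The count of 11 depended on single pigs: it was 2 without lean pig-413, 2 without lean pig-577, 4 without lean pig-525, 2 without obese pig-524, 3 without obese pig-572 and 17 without obese pig-433.

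**Figure D1:**
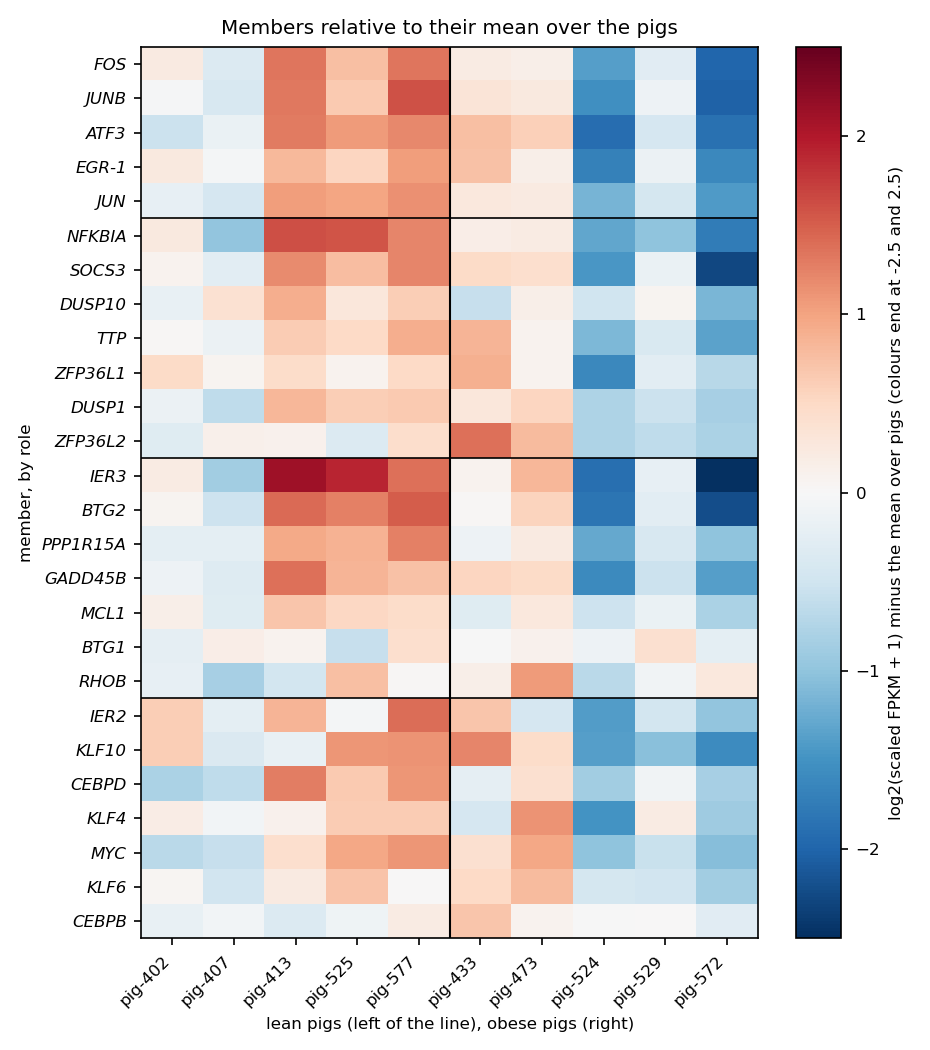
The 26 members tested (rows, by role) in each of the 10 pigs (columns, 5 lean and 5 obese), as log2(scaled FPKM + 1) minus the mean of the member over the pigs. Most rows are red in pig-413, pig-525 and pig-577 and blue in pig-524 and pig-572, while RHOB, BTG1 and CEBPB follow other patterns.

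FOS and JUN form the heterodimer AP-1, and JUNB is a second JUN protein that can take the place of JUN in it. In what follows, the values of lean pigs are in the order pig-402, pig-407, pig-413, pig-525 and pig-577, and those of obese pigs in the order pig-433, pig-473, pig-524, pig-529 and pig-572. FOS (ENSSSCG00000002383, chromosome 7, 104293657 to 104297121) had the highest mean of all members, with a scaled FPKM of 291, 195, 625, 419.5 and 626 in lean pigs and of 287, 274, 94.96, 203 and 62.1 in obese pigs. Of the 5 lean pigs 4 were above all obese pigs, and the other, pig-407, was below 3 of the obese pigs. The lean mean of 431 ± 194 (SD, n = 5) was 2.34 times the obese mean of 184 ± 102 (SD, n = 5), a difference of −1.32 ± 0.48 (SE) on the log2 scale (limma adjusted p = 0.185). The two-sided exact permutation test of the log2 values gave p = 0.0476, where 5 against 5 pigs can go no lower than 0.00794. All positions are those of Sscrofa10.2 in the deposited tables, which give no strand and no exons for a locus.

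JUN (ENSSSCG00000030839, chromosome 6, 141230121 to 141233597) stood at 65.1, 55.7, 156, 150.02 and 167 in lean pigs and at 90.2, 88.0, 32.8, 55.1 and 27.4 in obese pigs. JUNB (ENSSSCG00000013735, chromosome 2, 66505144 to 66507024) stood at 80.7, 62.0, 206, 129 and 249.7 in lean pigs and at 102, 97.3, 27.8, 75.2 and 19.4 in obese pigs. In both genes lean pig-402 and pig-407 were below obese pig-433 and pig-473, and pig-413, pig-525 and pig-577 were above every obese pig. The difference was −1.02 ± 0.43 for JUN (limma adjusted p = 0.2196, exact permutation p = 0.0635) and −1.25 ± 0.54 for JUNB (limma adjusted p = 0.226, exact permutation p = 0.0873). EGR-1 (ENSSSCG00000014336, chromosome 2, 146156065 to 146160020), a zinc finger factor induced through SRF, stood at 40.0, 32.5, 59.8, 49.1 and 70.1 in lean pigs and at 56.9, 37.4, 9.79, 30.3 and 10.3 in obese pigs. Obese pig-433 and pig-473 were within the lean range, and the 3 other obese pigs were below all lean pigs (difference −1.03 ± 0.46, limma adjusted p = 0.240, exact permutation p = 0.0952). ATF3, a factor of the ATF/CREB family that pairs with JUN, ranged from 18.7 to 68.9 in lean pigs and from 6.66 to 47.4 in obese pigs (difference −1.13 ± 0.61, limma adjusted p = 0.303). All 5 tested AP-1 and EGR factors had a lower mean in obese pigs, 4 of them with an unadjusted p under 0.05, and their median difference was −1.13.

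Among the other transcription factors, 6 of 7 tested had a lower mean in obese pigs and 1 had an unadjusted p under 0.05. That 1 was IER2 (ENSSSCG00000013753, chromosome 2, 66211129 to 66211794), a nuclear regulator of transcription, at 7.04, 3.45, 8.495, 4.09 and 12.97 in lean pigs and at 7.59, 2.95, 1.01, 2.83 and 1.66 in obese pigs. The 4 obese pigs other than pig-433 were below all lean pigs (difference −1.02 ± 0.41, limma adjusted p = 0.202, exact permutation p = 0.0556). The libraries of pig-572 gave 0.851 and 2.47 for this low gene. The Krüppel-like factors KLF10, KLF4 and KLF6 had differences of −0.92 ± 0.56, −0.59 ± 0.42 and −0.21 ± 0.33, MYC of −0.50 ± 0.48 and CEBPD of −0.65 ± 0.44, with limma adjusted p between 0.365 and 0.736. CEBPB, which acts with CEBPD early in adipocyte differentiation, had a higher mean in obese pigs (4.21 ± 0.755 in lean and 5.09 ± 1.67 in obese pigs, SD, n = 5 each, difference 0.20 ± 0.17, limma adjusted p = 0.528).

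The feedback inhibitors held the member with the lowest p, DUSP10, and the one with the highest, ZFP36L2. DUSP10 (ENSSSCG00000010831, chromosome 10, 12977461 to 13015992), a phosphatase that inactivates the stress kinases p38 and JNK, stood at 6.67, 10.5, 15.5, 9.65 and 12.4 in lean pigs and at 4.88, 8.65, 5.25, 8.20 and 2.98 in obese pigs. Lean pig-402 was within the obese range and the 4 other lean pigs were above all obese ones (difference −0.80 ± 0.27, limma adjusted p = 0.165, exact permutation p = 0.0397). NFKBIA (ENSSSCG00000001952, chromosome 7, 69417309 to 69420851), which holds NF-kB in the cytoplasm and is itself an NF-kB target, stood at 83.2, 34.9, 217, 209.8 and 164 in lean pigs and at 78.5, 81.1, 27.9, 34.3 and 20.1 in obese pigs. Lean pig-407 stood with the low obese pigs, and the lean mean of 142 ± 80.0 was 2.93 times the obese mean of 48.4 ± 29.1 (SD, n = 5 each). Its difference was −1.47 ± 0.56 (limma adjusted p = 0.191, exact permutation p = 0.0397).

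DUSP1 (ENSSSCG00000016991, chromosome 16, 55768409 to 55771513), the phosphatase of ERK, p38 and JNK, was among the 3 members with the highest mean, at 164, 117, 323, 279 and 286 in lean pigs and at 222, 264, 106, 125 and 101 in obese pigs. The order of the pigs was close to that of FOS, but the difference was smaller (−0.53 ± 0.36, limma adjusted p = 0.422, exact permutation p = 0.222). ZFP36L2 (ENSSSCG00000008461, chromosome 3, 103259066 to 103261670) stood at 2.32, 3.50, 3.38, 2.25 and 4.55 in lean pigs and at 9.68, 6.10, 1.39, 1.63 and 1.36 in obese pigs. The obese pigs took both ends of its range: 2 were above and 3 below every lean pig, so that the obese mean was the higher on the linear scale (4.03 against 3.20) while the log2 difference was −0.01 ± 0.42 (limma adjusted p = 0.987). Its relatives TTP and ZFP36L1, which like it bind AU-rich mRNA and promote its decay, had differences of −0.76 ± 0.39 and −0.64 ± 0.38. SOCS3, the inhibitor of cytokine receptors, ranged from 19.3 to 55.7 in lean and from 4.08 to 33.3 in obese pigs (difference −1.19 ± 0.55, limma adjusted p = 0.243). All 7 inhibitors had a negative log2 difference, 2 of them with an unadjusted p under 0.05.

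Of the regulators of growth arrest, survival and stress, 5 of 7 tested had a lower mean in obese pigs and 4 had an unadjusted p under 0.05. IER3 (ENSSSCG00000027607, chromosome 7, 26987521 to 26988891), an NF-kB target that acts on survival, had the widest range of all members, with 54.0, 25.2, 207, 177 and 123 in lean pigs and 49.7, 83.9, 12.03, 40.3 and 3.11 in obese pigs. The highest pig was 66.8 times the lowest, pig-572, whose libraries gave 3.06 and 3.15. Its difference of −1.89 ± 0.85 (limma adjusted p = 0.238, exact permutation p = 0.0794) had the largest size and the largest error among the members tested. BTG2 (ENSSSCG00000028322, chromosome 9, 70327445 to 70331400), an antiproliferative target of p53, stood at 207, 137, 528.6, 473.01 and 561 in lean pigs and at 199.6, 289, 54.5, 164 and 41.5 in obese pigs. Pig-413, pig-525 and pig-577 were the highest and pig-524 and pig-572 the lowest, as for FOS (difference −1.50 ± 0.60, limma adjusted p = 0.203, exact permutation p = 0.0635).

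PPP1R15A (ENSSSCG00000003155, chromosome 6, 49919339 to 49922833), also known as GADD34, directs the phosphatase that restores translation after stress. It stood at 9.78, 9.71, 23.6, 22.2 and 29.4 in lean pigs and at 10.7, 13.9, 4.28, 8.69 and 5.31 in obese pigs (difference −1.03 ± 0.37, limma adjusted p = 0.181, exact permutation p = 0.0556). MCL1 (ENSSSCG00000006652, chromosome 4, 107809261 to 107811482), a short-lived survival protein of the BCL2 family, stood at 38.0, 27.7, 55.7, 49.5 and 47.7 in lean pigs and at 27.5, 41.6, 23.6, 30.3 and 19.5 in obese pigs. It had the narrowest range of the 11 members with an unadjusted p under 0.05, with 2.86 between the highest and the lowest pig (difference −0.60 ± 0.23, limma adjusted p = 0.191, exact permutation p = 0.0476). GADD45B, a stress sensor upstream of p38 and JNK, ranged from 38.8 to 129 in lean and from 15.6 to 72.0 in obese pigs (difference −0.997 ± 0.49, limma adjusted p = 0.265). BTG1 (ENSSSCG00000000914, chromosome 5, 95088441 to 95091191), a relative of BTG2, stood at 129, 168, 161, 100.2 and 202 in lean pigs and at 150.2, 161, 137, 199.1 and 126 in obese pigs. The obese range lay within the lean range (difference 0.05 ± 0.20, limma adjusted p = 0.910), and RHOB, a small GTPase induced by stress, had a difference of 0.29 ± 0.35 (limma adjusted p = 0.659).

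**Figure D2:**
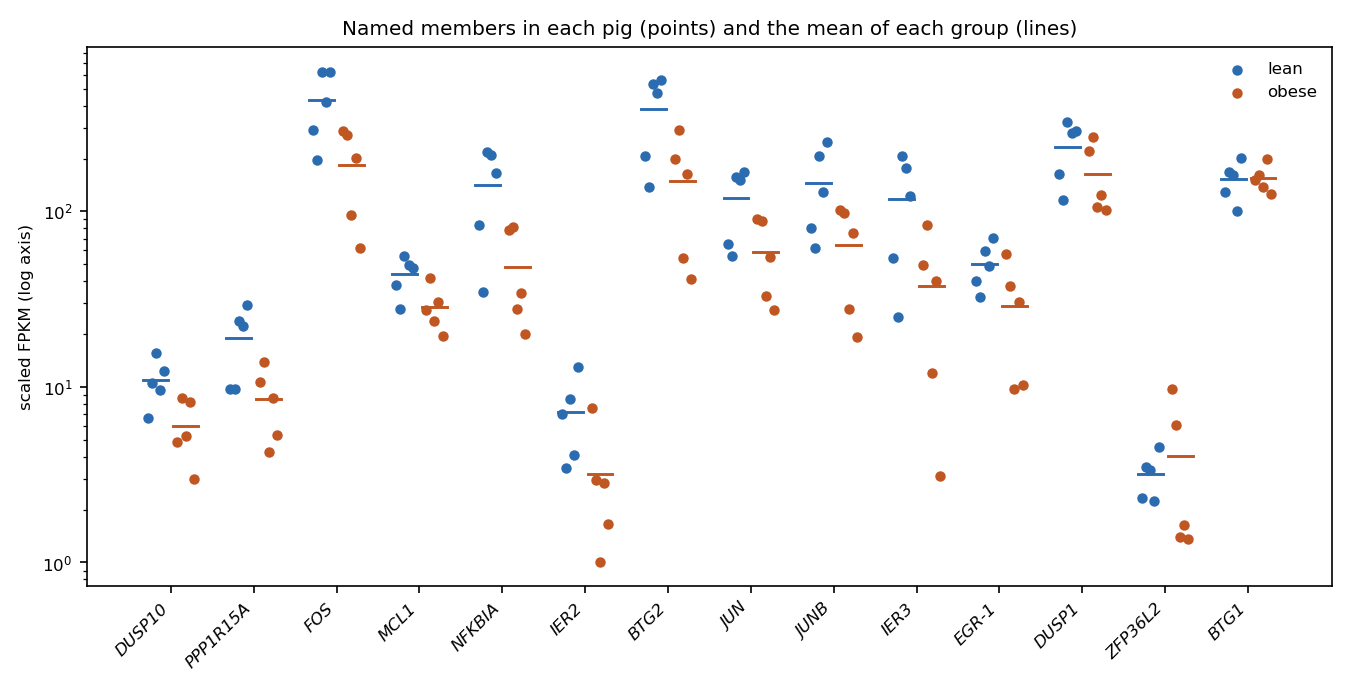
Scaled FPKM (log axis) of the 11 members with an unadjusted p under 0.05, of DUSP1 and of the 2 members with the highest p, ZFP36L2 and BTG1, with a point for each of 5 lean and 5 obese pigs and a line for the mean of each group. Lean and obese points overlap in every member shown, and IER3 spans from 3.11 to 207.

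**Figure D3:**
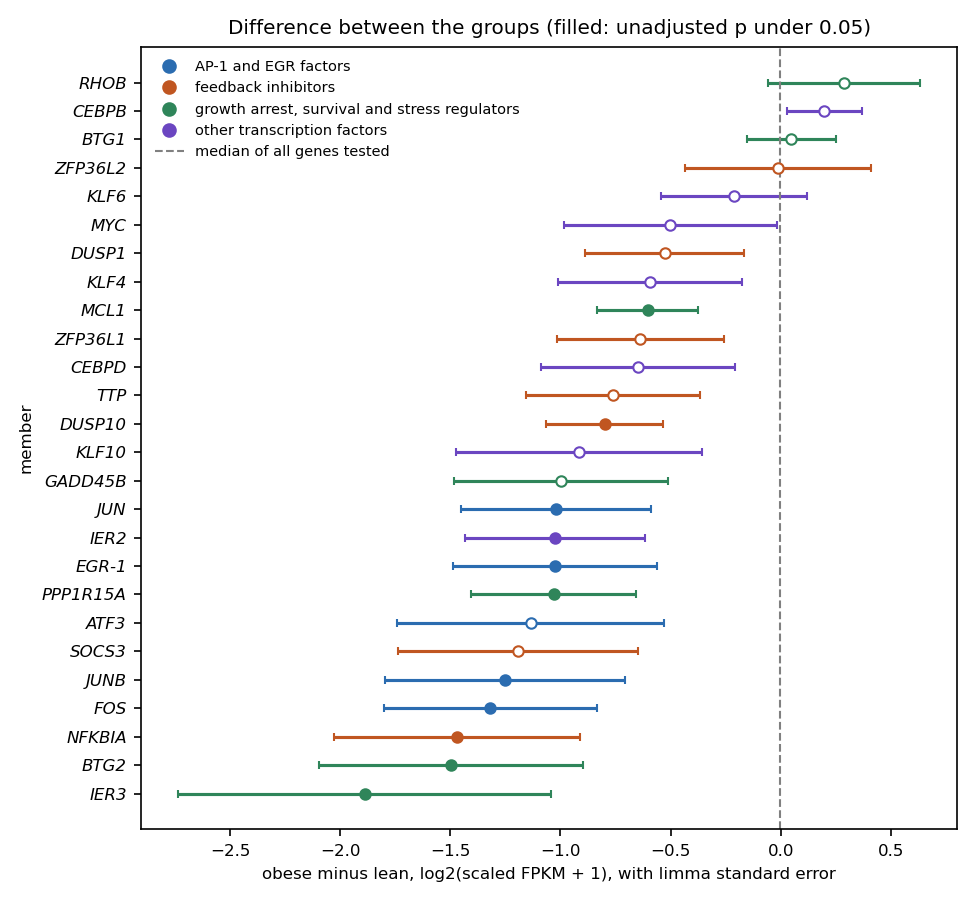
Difference between obese and lean pigs on the log2 scale, with its limma standard error, for the 26 members tested, coloured by role and filled where the unadjusted p was under 0.05. The members run from −1.89 (IER3) to 0.29 (RHOB), and 23 of 26 lie below 0, near which the median of all genes lies (dashed line).

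Members below the level for testing were FOSL1 (0.321 to 0.854 scaled FPKM over the pigs), EGR2 (0.0551 to 0.552), NR4A1 (0.0379 to 0.368) and NR4A2 (0.0559 to 0.561). Of those found by their identifier, NR4A3 and EGR3 were also low (means of 0.195 and 0.0221), and IER5 ranged from 0.906 to 4.42 in lean and from 0.326 to 3.13 in obese pigs (difference −0.70 ± 0.35, limma adjusted p = 0.277). The orphan receptors NR4A1, NR4A2 and NR4A3 and the factor EGR2, which are induced by many of the same signals, thus had values near the lower limit in adipocytes in which FOS was at 62.1 or more in every pig. The entry of NR4A1 lies on an unplaced piece of the assembly (Un_GL892233.1, 21 to 1787). Whether the gene is complete there was not tested, so its level is uncertain. TTP, KLF10 and CEBPB each have a second entry under another identifier, with values within 2.503%, 2.87% and 3.53% of the first in every pig, and the first entry was used. Reads of these genes may be split between the entries, so their levels are uncertain.

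The same pigs were high or low for most members. Lean pig-577 was among the 3 highest pigs in 24 of 26 members, lean pig-525 in 18 and lean pig-413 in 17, where over all genes tested they were so in 34.1%, 34.8% and 37.0%. Obese pig-572 was among the 3 lowest in 25 of 26 and pig-524 in 23, and one or the other was the lowest pig in 23 members (15 and 8). For all genes tested, pig-572 was among the 3 lowest in 30.0% and pig-524 in 31.1%. Lean pig-402 and pig-407 and obese pig-433, pig-473 and pig-529 lay between, with median ranks from 4 to 7 among the 10 pigs. The median within-group SD on the log2 scale was 0.763 for the members and 0.225 for all genes tested, and all 26 members were above the latter. The genes were not matched for level here, and adding 1 before the log2 narrows the SD of low genes. On the same log2 scale, the obese pigs had the larger SD in 22 of 26 members, where this was so in 3576 of 10190 genes. Without the log2 the direction differed between members. The SD of scaled FPKM was 194 in lean and 102 in obese pigs for FOS, and 0.950 and 3.74 for ZFP36L2.

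Members went up and down together across the pigs. The median Pearson r of the 325 pairs of members over 10 pigs was 0.77 (Spearman 0.73), against −0.00 for all pairs of genes tested, and it was 0.73 when each value was taken relative to the mean of its group. An r above 0.5 was found in 75.4% of the member pairs and in 13.3% of all pairs. These r are a description, since all genes of a pig share 1 library, or 2 in pig-572. FOS was tested against the 25 other members by permutation of the pigs (100000 permutations, two-sided), and 21 relations had an adjusted p under 0.05 for Pearson's r and 18 for Spearman's rho. The closest was JUNB (r = 0.99, permutation p = 1e-05, adjusted 6.25e-05, the smallest p that the permutations can give before adjustment, and rho = 0.96, permutation p = 9e-05, adjusted 0.00075). Without pig-524 and pig-572, the pigs farthest from the median of FOS, r was 0.97 for JUNB. For DUSP1, r was 0.89 (permutation p = 2e-05, adjusted 8.33e-05) and rho 0.94 (permutation p = 0.00022, adjusted 0.000786), with r = 0.86 without those pigs. FOS was not tested in this way against genes outside the members. An r with FOS above 0.8 was found in 17 of 25 members and in 4.53% of all genes tested. The pigs were permuted across both groups, so a difference between lean and obese pigs can add to these relations. Relative to the group means, the median r with FOS was 0.87 for the members and −0.00 for all genes.

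The relation was weak for a few members. KLF4, KLF6 and DUSP10 passed with Pearson's r (0.73, 0.69 and 0.83) but not with Spearman's rho (0.61, 0.59 and 0.66), and without pig-524 and pig-572 their r was 0.24, 0.38 and 0.59. KLF10 and ZFP36L1 passed with both measures, but their r was 0.46 and 0.44 without those pigs. Those pigs are the lowest for FOS, so the r without them is over a narrower range of FOS. ZFP36L2, BTG1, CEBPB and RHOB passed with neither, with r of 0.52, 0.25, 0.16 and 0.14 and adjusted permutation p of 0.14, 0.536, 0.685 and 0.691. CEBPB and ZFP36L2 had an r of 0.73 with each other, above the r of either with FOS. The r of ZFP36L2 was as high with its relatives TTP (0.74) and ZFP36L1 (0.73).

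**Figure D4:**
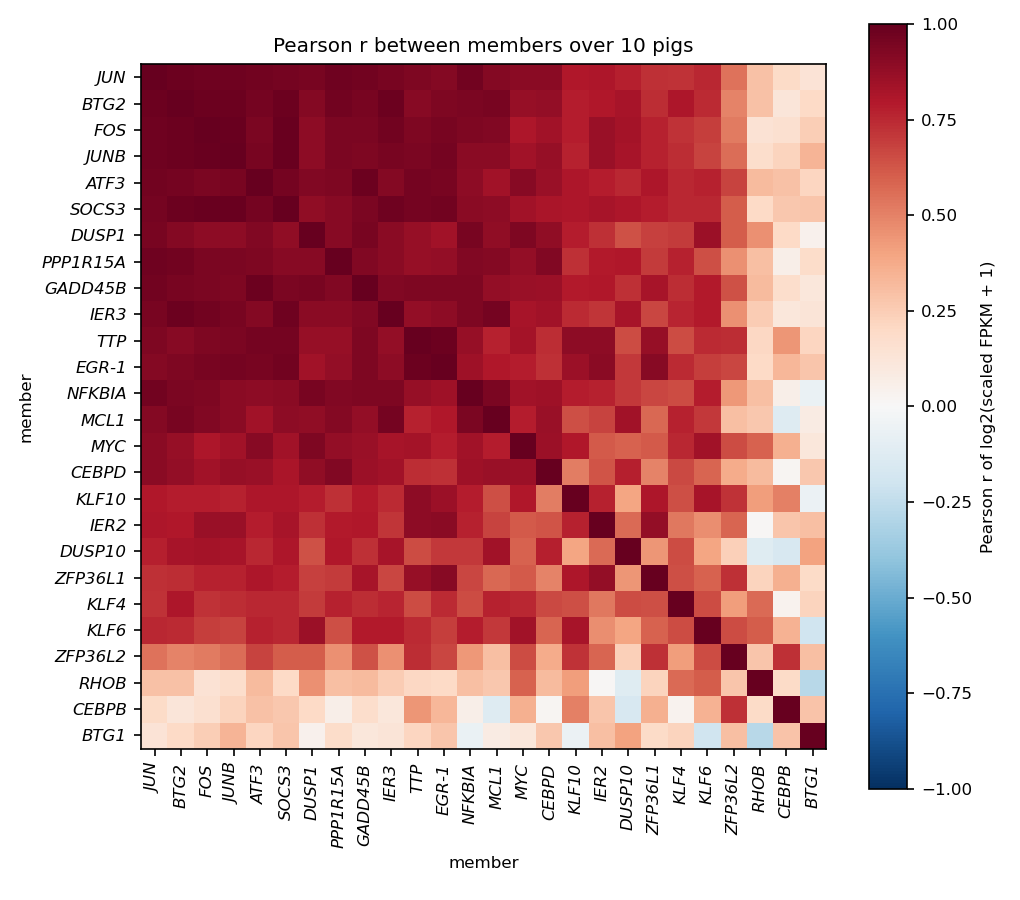
Pearson r between the 26 members over 10 pigs, ordered by the median r with the other members. The members from JUN to CEBPD have a median r of 0.81 or more with the others, while RHOB, CEBPB and BTG1, with median r of 0.28, 0.20 and 0.20, stand apart.

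Gene lists of the pathways around the members are given by their counts, and no test compared them with the members. Of the MAP kinases and the factors they act on (SRF, ELK and CREB families among 27 listed), 19 were tested, with 1 lower and 4 higher in obese pigs at an unadjusted p under 0.05, a median difference of 0.07 and a median r with FOS of −0.24. The kinases MAP2K7 (difference 0.27), MAP2K1 (0.30) and the factor CREB1 (−0.20) had the lowest p (limma adjusted p = 0.136, 0.192 and 0.202), and in MAP2K7 the groups did not overlap. Of the NF-kB subunits and targets, 18 of 24 were tested, and 12 had a lower and 6 a higher mean in obese pigs, with a median difference of −0.54. At an unadjusted p under 0.05, 3 were lower (SOD2, a mitochondrial antioxidant enzyme, NFKB1 and NFKBIZ) and 1 higher. Their median r with FOS was 0.48, and 5 of them, or 27.8%, had an r above 0.8. NFKBIZ, a nuclear regulator of NF-kB, had a lean mean of 17.2 ± 9.14 and an obese mean of 6.56 ± 4.003 scaled FPKM (SD, n = 5 each, difference −1.26, limma adjusted p = 0.179). SOD2 and NFKB1 had differences of −0.67 and −0.56 (limma adjusted p = 0.132 and 0.177).

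Of 5 other dual-specificity phosphatases tested, the ERK phosphatases DUSP5 and DUSP6 were lower (−1.26 and −0.89, limma adjusted p = 0.177 and 0.1804) and DUSP3 was higher (0.55, adjusted p = 0.103, no overlap) at an unadjusted p under 0.05. Of 25 other early growth response genes tested, 15 had a lower and 10 a higher mean in obese pigs, with a median of −0.16 and a median r with FOS of 0.49. At an unadjusted p under 0.05, 0 were lower and 2 higher, and the count of 0 was 1 to 4 under 15 of 22 alternatives. An r with FOS above 0.8 was found for 6 of them, or 24.0%, where 4.53% of all genes had one. TOB1, a relative of BTG2, had a difference of 0.91 (limma adjusted p = 0.155), KLF15, a glucocorticoid target, of 0.44 (adjusted p = 0.215) and ZFAND5 of −0.64 (adjusted p = 0.247). The integrated stress response, which shares PPP1R15A as its feedback, had 5 of 12 tested with a lower and 7 with a higher mean in obese pigs and a median of 0.09. At an unadjusted p under 0.05, 0 were lower and 1 higher (TRIB3, difference 0.81, limma adjusted p = 0.223), with XBP1 at −0.36 and CEBPG at 0.44 (adjusted p = 0.257 and 0.283). No gene of these lists passed the adjusted threshold. The median r with FOS was 0.89 for the members and −0.01 for all genes.

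The adipocyte identity of the samples was checked with markers. Of 17 adipocyte markers listed, 11 were found and tested, and ADIPOQ, FABP4, LPL, CIDEA, DGAT2 and SCD were not among them. The 11 adipocyte markers tested summed to 3263 to 3883 scaled FPKM in lean and to 3162 to 5026 in obese pigs, led by CD36, FASN and CIDEC (lean means 1381, 929 and 484), with 2 higher at an unadjusted p under 0.05 (LEP, the adipokine leptin, difference 2.29, limma adjusted p = 0.0899, and CEBPA, 0.65, adjusted p = 0.169). PLIN4 had a difference of 0.31 (limma adjusted p = 0.302). Fibroblast and preadipocyte markers summed to 1056 to 1270 in lean and to 759 to 1396 in obese pigs, led by VIM, COL3A1 and DCN, and 10 of 11 tested had a lower mean in obese pigs, as most members did, with a median difference of −0.57. An unadjusted p under 0.05 was found for 3 of them, all lower (FN1, FBN1 and DPT, differences −1.36, −0.92 and −1.80, limma adjusted p = 0.0970, 0.1797 and 0.211). VIM and COL3A1 had means of 605 and 396 over the pigs. PDGFRA, PDGFRB and CD34 of the same list had means of 0.742, 0.382 and 0.698, below the level for testing. The leukocyte markers summed to 33.5 to 53.2 in lean pigs and to 32.9 to 89.6 in obese pigs. The highest sums were those of pig-572 (89.6) and pig-524 (58.9), in which most members were lowest. Next came lean pig-577 (53.2) and pig-525 (49.5), which were among the 3 highest pigs for most members. The leukocyte sum was led by the granulocyte gene S100A8, with S100A9 and C1QC next. S100A8 alone was at 64.5 in pig-572, and its highest lean value was 22.5. The first place of pig-572 in the leukocyte sum thus rested on this gene and does not describe the other leukocyte markers. Of 7 leukocyte markers tested, 0 had an unadjusted p under 0.05 (the lowest adjusted p, by limma, was 0.478 for MRC1, followed by CD14 and TYROBP). PTPRC and CD68, which define leukocytes and macrophages, had means of 0.425 and 0.258, and CD163 was listed at 0 in every pig.

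Endothelial markers summed to 2.55 to 18.5 in lean and to 10.9 to 15.6 in obese pigs, and 1 of 2 tested, EGFL7, was higher at an unadjusted p under 0.05 (0.85, limma adjusted p = 0.149), while PECAM1 differed by 0.12. Of the smooth muscle markers, TAGLN was higher at an unadjusted p under 0.05 among 3 tested (0.37, limma adjusted p = 0.209), CSPG4 and RGS5 were at −0.20 and 0.18, and their sums were 5.72 to 14.8 and 10.9 to 15.0. Mesothelial markers summed to at most 1.24 in any pig, with 0 tested. Red blood cell markers summed to 13.3 to 81.6 in lean and to 15.7 to 39.9 in obese pigs, nearly all of it HBB, with SLC4A1 listed at 0 in every pig. The part of these other cells in the levels of the immediate early genes was not tested.

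Methylation at these loci was read from the regions returned by the authors' search for differences, so that their difference is how they were listed and is given as a description. In the mDNAcap comparison 11 obese and 11 lean libraries are set against each other, with pig-411, labelled obese, among the lean files. A further library labelled obese is in neither group. The values of a region carry no animal names, so they could not be joined to the RNA of the same pig. The 7401 mDNAcap regions had 11 within 50000 bases of a member, at 8 of the 33 loci (24.2%), beside 28.3% of all 25337 loci. Of those 11 regions 10 had the lower mean in obese pigs, as did 70.7% of all regions.

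The region that overlapped a member lay within the locus of DUSP10 (chromosome 10, 12989401 to 12990400). Its normalized read count had a lowest, median and highest value of 9, 11.4 and 24.2 in 11 lean libraries and of 2.44, 8.29 and 17.4 in 11 obese ones, with 1 obese library above the lean median. The means were 14.4 ± 5.52 in lean and 8.24 ± 4.02 in obese libraries (SD, n = 11 each), a log2 ratio of −0.81. A region 1878 bases from KLF6 (chromosome 10, 73003701 to 73004700) had 10.9, 14.6 and 20.7 in lean and 2.91, 9.67 and 15.0 in obese libraries, a log2 ratio of means of −0.72. The region closest to IER3, at 2710 bases (chromosome 7, 26991601 to 26992600), was the single one with more methylated DNA captured in obese libraries. It had 3.10, 7.26 and 12.2 in lean and 6.72, 10.96 and 23.3 in obese libraries (lowest, median and highest), with 9 of 11 obese libraries above the lean median and a log2 ratio of means of 0.81. A second region, 32821 bases on the other side of IER3, had a log2 ratio of −0.81.

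The region nearest to FOS was 14957 bases away (chromosome 7, 104277201 to 104278700), with 13.2, 21.8 and 29.8 in lean and 2.91, 12.97 and 23.6 in obese libraries and a log2 ratio of −0.73. The other regions lay 11409 and 14909 bases from DUSP1, 37261 from DUSP10, 39658 from GADD45B, 47535 from FOSL1 and 48120 from MYC, with log2 ratios from −0.97 to −0.63. Over all 7401 regions the median log2 ratio was −0.66. Lean and obese libraries overlapped in all 11 regions, where 0.149% of all regions had no overlap. Counts of this size rest on few reads. The mean read count of a 1000-base bin was 0.63 to 7.04 in a lean and 0.44 to 4.1 in an obese library.

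**Figure D5:**
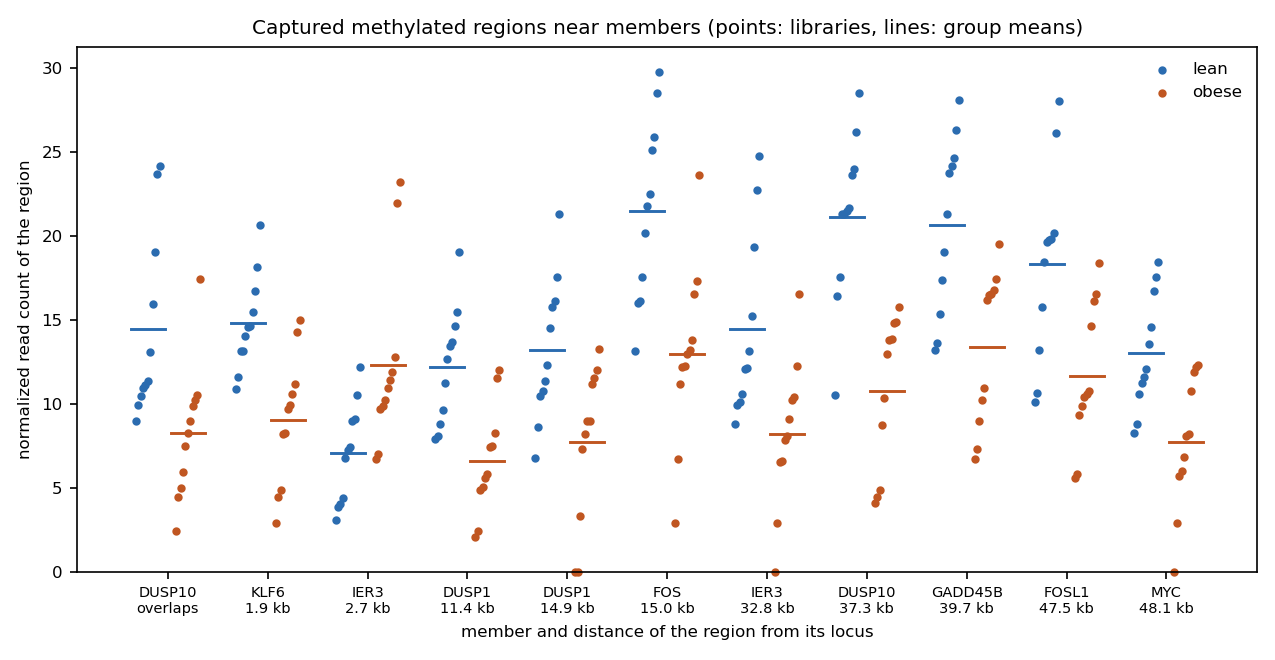
Normalized read count of the 11 mDNAcap regions within 50000 bases of a member, ordered by distance (in kb) from its locus, with a point for each of 11 lean and 11 obese libraries and a line for each group mean. Lean means are above obese means in 10 regions, and the region 2.7 kb from IER3 is the exception, and the libraries of the groups overlap in each.

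RRBS gives the methylation level of a group in percent, as the authors' mean over the CpGs of a region, with no value per pig and no depth. In the table that asks for values in at least 5 pigs per group, 1 of 610 regions lay within 50000 bases of a member, at EGR3 (3.03% of 33 loci, beside 5.02% of all loci). In the table that asks for at least 3 pigs per group, 10 of 2412 regions with at least 10 CpGs and a difference of at least 10 points did so, at 7 loci (21.2%, beside 16.1% of all loci), with 5 higher and 5 lower in obese pigs. PPP1R15A had such a region within its locus (chromosome 6, 49921201 to 49921670, 10 CpGs), at 48.3% in obese and 62.0% in lean pigs. EGR3, which was hardly expressed, had a region of 12 CpGs within its locus (chromosome 14, 7427033 to 7427115) at 23.2% in obese and 36.5% in lean pigs and a second one 43 bases from it at 16.9% and 28.6%. On the other side of the locus, 9218 bases away at 7437378 to 7437447, the table of at least 5 pigs had 23.1% in obese and 7.47% in lean pigs, so that the regions around EGR3 differed in direction. The table of at least 3 pigs had a longer region there (7437129 to 7437447, 12 CpGs), at 28.5% in obese and 16.4% in lean pigs.

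Members of the AP-1 group had more distant regions in the table of at least 3 pigs. The region nearest to JUNB, 30371 bases away (chromosome 2, 66474733 to 66474773), had the largest difference of the 10, with 84.8% in obese and 62.8% in lean pigs. That nearest to JUN, 23720 bases away (chromosome 6, 141257317 to 141257703), had 29.2% and 39.4%. For IER3 a region 46759 bases away (chromosome 7, 26940561 to 26940762) had 22.3% in obese and 11.1% in lean pigs. The other regions were a pair at FOSL1, 17812 and 28310 bases away and higher in obese pigs by 11.4 and 14.6 points, and 1 at RHOB, 38469 bases away, with 80.6% in obese and 93.6% in lean pigs. No region of the RRBS tables lay within 50000 bases of FOS, BTG2, NFKBIA, MCL1, IER2, DUSP10 or EGR-1.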

How the data were processed

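Reads of ribosome-depleted total RNA were mapped by the authors to Sscrofa10.2 with STAR (Ensembl annotation), and the deposited FPKM values were estimated per library with cufflinks. The submitters' processing notes name STAR 2.3.1 and Cufflinks 2.2.0. For mDNAcap, the authors used diffReps 1.55.4 (window 1000, step 100, p cutoff 0.0001), and deposited per library a normalized count (reads over one constant per library) and per group a mean signal. For RRBS, the authors deposited metilene regions with the mean methylation fraction of each group and, as a score, the number of CpGs. The authors' fold changes, p-values and q-values, their hotspot table and their table of expression tests were not used. The members of the RRBS groups are not given in the files. Pig-411 is labelled obese and is counted as lean in the authors' mDNAcap comparison.

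Entries that share an identifier were summed, and 9 genes with a failed estimate were left out. FPKM values were divided by median-of-ratios size factors, and log2(value + 1) was fitted with limma 3.58.1 (eBayes with trend, R 4.3.3), with Benjamini-Hochberg adjustment over all genes tested and a threshold of 0.05; a fold on this scale understates that of low genes. Fits were tested on simulated data. Correlations and exact permutation tests over the 252 splits of the pigs used Python 3.11.15, numpy 2.4.6, pandas 2.3.3 and scipy 1.17.1, and figures matplotlib 3.10.9. Fractions were multiplied into percent. A region was near a member within 50000 bases of the locus in the FPKM tables; no genome of that build was used here, so no sequence is shown. The members, gene lists and tests were chosen with earlier results of these data known. Every pig's value is given for members with an unadjusted limma p under 0.05, for the 3 with the highest mean and for the 2 with the highest p. Of each list, up to 3 genes with the lowest p are named, and the 3 most abundant markers. All regions on or within 5000 bases of a member, and the nearest for members with an unadjusted p under 0.05, are named. Alternatives changed the scaling, pseudocount, filter, library of pig-572, variance model, left-out pig, distance and region cutoffs.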

Additional observations from a re-analysis of the deposited data

How the results depend on the processing

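No member passed the adjusted threshold under any alternative run. The median difference of the members stayed below 0 in all of them, between −1.10 (without obese pig-433) and −0.63 (without obese pig-572), and the median r between members lay between 0.71 and 0.81. The count of members lower at an unadjusted p under 0.05 (11) was 8 to 15 under other scalings, pseudocounts, filters, libraries of pig-572 and variance models, and 2 to 17 when 1 pig was left out. Without 1 pig, 0 to 2 members were lower in obese pigs with no overlap (1 without lean pig-402, 2 without lean pig-407 and 1 without obese pig-433). Signs turned in 2 members with differences near 0. The log2 fold change of ZFP36L2 (−0.01 as reported) was 0.0215 with only the library pig-572(B) and between −0.361 and 0.183 without 1 pig. The log2 fold change of BTG1 (0.05 as reported) was between −0.0906 and 0.161 without 1 pig. The cause was not tested.

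Counts of regions moved with the distance by construction. The 11 mDNAcap regions became 1 with overlap of the locus, 3 within 5000 bases and 23 within 100000 bases. The 1 RRBS region of at least 5 pigs became 0, 0 and 5, and the 10 of at least 3 pigs became 2, 3 and 19, with 5 where the member was the nearest locus. With at least 20 points of difference, 0 and 1 were left. All 11 mDNAcap log2 ratios kept their sign under the other scalings, including reads over the mean of 1000-base bins, which was chosen after seeing the data. Their sizes changed. With median-of-ratios size factors, the ratio was −0.46 for the region within DUSP10, −0.45 for FOS and −0.29 for GADD45B. That of the region closest to IER3 rose to 1.17. The median over all regions went from −0.66 to −0.36. Counting every entry of a symbol, or adding the members matched by identifier, was also chosen after seeing the data and left the count at 11.

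No paired analysis was possible because the replicate numbers only name pigs, and no lean pig is tied to an obese one. Each group had 5 pigs, the FPKM files give no depth, and the RRBS files no depth and no value per pig.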

Other observations

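Among all 10189 other genes tested, 12 members were in the 50 genes with the highest Pearson r with FOS over the pigs, and 13 in the first 100. Among the non-members outside the lists, the highest r, seen before they were chosen, were those of TFPI2, GNG11 and NDN. TFPI2, an inhibitor of serine proteases, had r = 0.96, with a lean mean of 52.1 ± 31.7 and an obese mean of 12.6 ± 8.54 scaled FPKM (SD, n = 5 each). GNG11, a G protein subunit, had r = 0.96, with means of 138 and 43.5, and NDN r = 0.95, with means of 12.6 and 8.19. These r are a description over 10 pigs, with no test, and an r above 0.8 with FOS was found in 462 of all genes tested (4.53%), against 17 of 25 members. In the same ranking, GLUL, glutamine synthetase, had r = 0.93 with means of 518 and 211. ANGPTL4, an inhibitor of lipoprotein lipase, had r = 0.93 with means of 59.0 and 12.7. GLUL and ANGPTL4 were picked for their known roles after the ranking was seen. SERPING1 and CCDC80, which were not picked, stood above them (r = 0.95 and 0.94). The median r with FOS was −0.09 for the adipocyte markers and 0.35 for the fibroblast and preadipocyte markers. Relative to the group means, these medians were 0.28 and 0.13.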
